A study of Homo sapiens with 9 samples.

Results

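Caki-1 cells in which TAF1D was knocked down by short hairpin RNA were compared with control Caki-1 cells, taking both knockdown groups together. Caki-1 is an established human line from a clear cell renal cell carcinoma, and the labels give kidney as its tissue. The control group holds 3 libraries of genotype WT, and the knockdown groups hold 3 libraries named SH1 and 3 named SH3, so all 9 of the 9 libraries of the study were used. SH1 and SH3 were read as different hairpins against the same gene; their sequences, the vector, and whether the controls carry a hairpin of their own are not given in the sources used here. The comparison asks which genes moved the same way with both hairpins. A gene was counted as higher or lower with both hairpins only if its 6 knockdown libraries all lay above, or all below, its 3 control libraries. The mean of SH1 and the mean of SH3 had equal weight. Values of some genes that overlapped are also given, mostly members of gene lists, and these are not shared changes. The labels number the libraries within a group but do not say that they came from separate cultures, so the p-values measure the spread between these libraries, which may be technical.

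TAF1D belongs to SL1, a complex of the TATA-binding protein and its associated factors that RNA polymerase I needs to start transcription of ribosomal RNA genes. The rate of that transcription sets how many ribosomes a cell can make, and growth signals that pass through PI3K, AKT and mTOR act on it. The study's title places TAF1D upstream of this signalling in clear cell renal carcinoma. A short hairpin RNA is cut in the cell into a small RNA that directs the breakdown of matching messenger RNA.

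The deposited table is a selection of 20909 transcripts of 6819 genes, all at least 2-fold apart between control 1 and SH1 1, against 51.51% to 64.85% of them in the other 35 pairs of libraries. After the transcripts of a gene were added up, 59.89% of genes were 2-fold apart between control 1 and SH1 1, against 36.94% to 52.87% in the other pairs. These 2 libraries therefore stand apart by construction, and the comparison was repeated on the other 7. TAF1D was not analysed here, and the depth of the knockdown is therefore unknown in both groups. The listed transcripts added up to 1358215 to 1596467 estimated counts per library, which is 4.202% to 5.176% of a library's TPM and not its depth. Of 19 markers of renal tubule and clear cell carcinoma, 17 were not analysed here; the summed level of the other two, PAX8 and MME, was 1.44 to 3.38 FPKM in controls, 5.58 to 8.77 in SH1 and 3.05 to 10.4 in SH3. Blood cell markers were represented by CD68 alone, at 7.84 to 12.5 FPKM in controls, 13.2 to 17.8 in SH1 and 12.7 to 14.1 in SH3. In scaled counts, PAX8, MME and CD68 each overlapped between knockdown and control libraries. None of them passed the edgeR quasi-likelihood test used below (adjusted p = 0.495, 0.877 and 0.832). The endothelial marker TIE1 and the fibroblast marker PDGFRB were below 1 FPKM in every library.

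Of 6398 genes tested, 60 passed the edgeR quasi-likelihood test at an adjusted p of 0.05 without overlap between knockdown and control libraries, which is 0.938% of all genes. In these, 37 genes were higher (0.578%) and 23 lower (0.359%) with both hairpins. Genes without overlap numbered 406 (6.35%) whatever their p, 193 higher (3.02%) and 213 lower (3.33%). The median log2 fold change was 1.46 among the 37 and −1.45 among the 23, against −0.07 over all genes tested. Scaling to library totals recovered from FPKM moved this median of all genes to 0.05. None of the 60 changed direction under any of the scalings tried, which genes chosen for no overlap could hardly do. In bulk RNA, a change in the cells present and a change in RNA per cell cannot be told apart, here and in what follows. Levels below are FPKM, a value per transcript length, summed over the listed transcripts of a gene, with n = 3 libraries per group; fold changes are log2 ± SE of the knockdown average against control, from the counts.

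The higher genes included secreted signals that attract or mature neutrophils. CSF3, the cytokine G-CSF that drives neutrophil production, stood at 84.8, 74.1 and 74.1 FPKM in the controls, at 237, 243 and 268 in SH1 and at 267, 287 and 253 in SH3. Every knockdown library was well above every control, and the hairpins lay close together: CSF3 rose 3.07-fold in the average (1.62 ± 0.09, adjusted p = 0.000164), by 1.52 ± 0.10 with SH1 and 1.71 ± 0.10 with SH3. CXCL1, a chemokine for neutrophils, was the most abundant gene among those named, with 204, 207 and 183 FPKM in the controls, 435, 406 and 390 in SH1 and 358, 343 and 332 in SH3. Its average change was 0.80 ± 0.09 (adjusted p = 0.00557). CXCL5, a related chemokine, was at 2.92, 1.33 and 1.61 FPKM in the controls, 10.8, 9.1 and 6.64 in SH1 and 6.44, 5.54 and 4.73 in SH3. CXCL5 rose by 1.74 ± 0.31 (adjusted p = 0.0496), and this call was lost when any library other than control 1 was left out.

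Both chemokine promoters hold a site for NF-kB, the transcription factor that switches on many inflammatory genes, and they are shown because these 2 genes rose together. The sequences are the 60 bases around the match, read in the direction of transcription from RefSeq (GRCh38.p14), with the match in capitals. They lie at chr4:73869289-73869348 on the plus strand for CXCL1 and at chr4:73998734-73998793 on the minus strand for CXCL5.
CXCL1: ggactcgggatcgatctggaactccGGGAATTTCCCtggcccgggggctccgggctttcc
CXCL5: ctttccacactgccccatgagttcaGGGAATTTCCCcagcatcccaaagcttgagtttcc
The capitals read the same in both genes. In the 250 bases before the start, searched on both strands, an NF-kB site was found in 9.57% of all 27305 promoters of the table and in 11.9% of those of genes tested. It was found in 3 of 28 promoters of called higher genes (10.7%) and 3 of 18 of called lower genes (16.7%), out of 46 of the 60 genes matched to the table. A match is a description of the letters, and binding was not measured.

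Of 38 genes on a list of NF-kB and inflammatory genes 20 were tested, of which 3 passed (CSF3, CXCL1 and CXCL5), all higher, and 0 lower; over all genes 0.938% passed and 6.35% were without overlap. The median log2 fold change of the 20 was 0.79, against −0.07 over all genes, and 5 of them were negative. Like the other lists, this one was drawn up with earlier results of these data known, so its excess over all genes is a description only. C3, the central complement component, passed the adjusted p alone (0.0262) but overlapped, at 2.78 with SH1 and −0.34 with SH3. A further 4 were without overlap and higher but did not pass the test: IL6, LIF, CSF2 and SOD2. CSF2, the cytokine GM-CSF, was just outside the threshold at 1.64 ± 0.31 (adjusted p = 0.0541), with 3.32, 3.59 and 5.2 FPKM in the controls, 17.2, 24.8 and 27.8 in SH1 and 9.32, 7.22 and 7.76 in SH3. LIF, a cytokine of the interleukin 6 family, was at 12.7, 4.78 and 7.34 FPKM in the controls and between 17.6 and 36.2 in the knockdown libraries (1.66 ± 0.35, adjusted p = 0.0857). IL6 itself ran from 2.74 to 7.64 FPKM in the controls and from 7.69 to 19.2 in the knockdown libraries (1.23 ± 0.29, adjusted p = 0.133), so the highest control and the lowest knockdown library almost touched. TNIP1, which encodes a partner of the NF-kB inhibitor A20 and is outside that list, rose by 1.10 ± 0.19 (adjusted p = 0.0497); this call was lost in 8 of the 9 fits that left out 1 library, all but the one without control 1, and at 0.0638 on the 7 libraries.

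**Figure D1:**
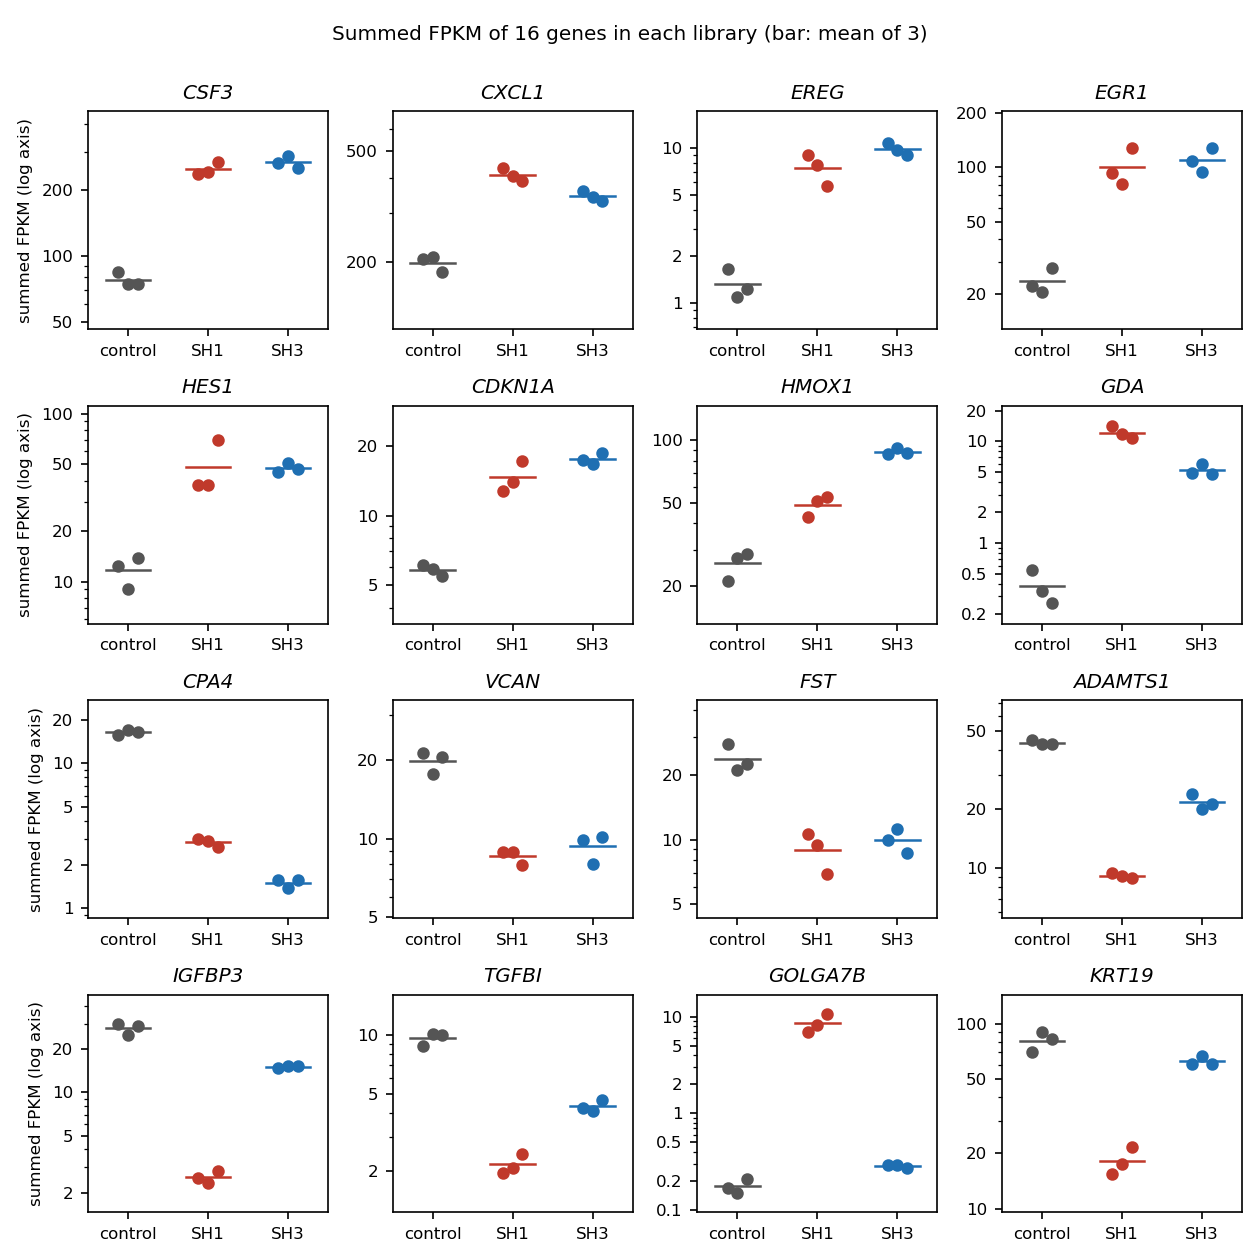
Summed FPKM on a log axis in each of the 9 libraries for 16 genes that passed the test; points are libraries, bars the mean of 3. CSF3, EGR1, HES1, VCAN and FST reached similar levels with both hairpins, whereas in GOLGA7B, KRT19, IGFBP3 and ADAMTS1 the SH3 libraries lay nearer the controls than those of SH1.

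EREG, a ligand of the EGF receptor, stood at 1.65, 1.08 and 1.23 FPKM in the controls, 8.95, 7.76 and 5.64 in SH1 and 10.8, 9.77 and 9.03 in SH3. No knockdown library was near the controls, and EREG rose 6.02-fold (2.59 ± 0.21, adjusted p = 0.00168). EGFR, the receptor, was at 42.2 to 56.2 FPKM in the controls, 27.2, 24.1 and 6.6 in SH1 and 35.5, 16.4 and 38 in SH3; it did not overlap, but its change of −1.13 ± 0.42 did not pass (adjusted p = 0.397). TGFA, a second ligand of that receptor, was at 0, 0.58 and 0 FPKM in the controls and 0.95 to 4.53 in the knockdown libraries, with a change of 3.68 ± 1.57 that did not pass (adjusted p = 0.485). Of 12 ligands and receptors of that family 4 were tested and 1 passed, against 0.938% of all genes. The median of the 4 was 1.15.

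MET, the receptor of hepatocyte growth factor, was at 1.12, 0.84 and 1.15 FPKM in the controls, 2.53, 1.66 and 1.4 in SH1 and 4.23, 4.25 and 5.95 in SH3. The SH1 libraries sat just above the controls and those of SH3 well above, and MET rose by 1.62 ± 0.26 in the average (adjusted p = 0.0306). The call for MET held in 2 of the 9 fits that left out 1 library, those without SH1 1 and SH1 3. PDGFA, a ligand of the PDGF receptors, was 1.52 to 4.12 FPKM in the controls and 5.54 to 11.3 in the knockdown libraries, and did not pass (1.10 ± 0.35, adjusted p = 0.309). FGF1 and the receptor FGFR4 lay on the lower side, at −1.41 ± 0.36 (adjusted p = 0.18) and −1.16 ± 0.48 (adjusted p = 0.468). In the list of other growth factors and receptors 12 of 25 were tested and 1 passed (MET, higher), against 0.938% of all genes. The median of the 12 was 0.38.

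Of 5 tested genes of insulin-like growth factor binding, out of 14, GRB10 passed as higher and IGFBP3 as lower. Over all genes 0.938% passed. GRB10, an adaptor that restrains the insulin and IGF receptors, was at 1.83, 1.88 and 3.04 FPKM in the controls, 6.75, 5.64 and 5.52 in SH1 and 8.81, 10.2 and 8.84 in SH3. GRB10 rose by 1.59 ± 0.22 (adjusted p = 0.0179), although 6 of its 42 RefSeq messenger RNAs were listed. IGFBP3, the main carrier of IGFs in blood, was at 30.1, 25 and 28.9 FPKM in the controls, 2.55, 2.33 and 2.81 in SH1 and 14.8, 15.2 and 15.3 in SH3. All knockdown libraries were lower, in 2 clearly separate steps, and IGFBP3 fell by 2.28 ± 0.11 on the log2 scale (adjusted p = 8.27e-05). STC1, a secreted glycoprotein on the same list, was at 0.32 to 0.52 FPKM in the controls and 0.77 to 1.89 in the knockdown libraries (1.52 ± 0.38, adjusted p = 0.173). The other two tested members, IGF1R and IGFBP1, did not pass either.

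Among transcription factors, EGR1 and HES1 rose about equally with both hairpins. EGR1, an immediate early gene induced within minutes of growth factor stimulation, was at 22.1, 20.4 and 27.8 FPKM in the controls, 92.8, 81.1 and 128 in SH1 and 108, 94 and 128 in SH3. The groups were far apart and EGR1 rose 4.14-fold (2.05 ± 0.20, adjusted p = 0.00435). HES1, a repressor activated by Notch, was at 12.4, 9.02 and 13.9 FPKM in the controls, 37.6, 37.6 and 69.9 in SH1 and 45, 51.2 and 47.2 in SH3. HES1 rose by 1.92 ± 0.26 (adjusted p = 0.0164) and SH1 3 was above the other knockdown libraries; the call was lost in 6 of the 9 fits that left out 1 library, those without a control or an SH3 library. Of 25 immediate early genes 12 were tested and 1 passed, against 0.938% of all genes. The median of the 12 was 1.13, and their values spread from well below to well above 0. Of the 12, 5 were negative. BMAL2, a partner of CLOCK in the circadian clock, rose by 0.69 ± 0.12 (adjusted p = 0.0497).

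The promoter of EGR1 is known for its serum response elements, sites through which growth factor signals act, and a match was also present before KCNK3. They are shown because these were the only called genes with such a match among the 46 in the promoter table. The windows lie at chr5:138465360-138465419 for EGR1 and chr2:26692570-26692629 for KCNK3, both on the plus strand, with matches in capitals.
EGR1: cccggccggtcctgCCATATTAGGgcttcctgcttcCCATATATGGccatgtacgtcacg
KCNK3: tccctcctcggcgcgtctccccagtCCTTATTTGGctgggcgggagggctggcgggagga
EGR1 holds 2 matches in this window and KCNK3 holds 1. A serum response element was found in 1.14% of all promoters and 0.954% of those of genes tested, in 2 of 28 promoters of called higher genes (7.14%) and 0 of 18 of called lower ones. KCNK3 encodes a background potassium channel. It was at 2.05, 2.11 and 1.69 FPKM in the controls, 6.94, 8.49 and 9.47 in SH1 and 4.76, 5.23 and 5.31 in SH3, and rose by 1.62 ± 0.18 (adjusted p = 0.00662).

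CDKN1A encodes p21, an inhibitor of cyclin-dependent kinases that stops the cell cycle and is a target of p53. It was at 6.12, 5.89 and 5.48 FPKM in the controls, 12.8, 13.9 and 17.1 in SH1 and 17.3, 16.7 and 18.6 in SH3. The controls were tight and the knockdown libraries well above them, and CDKN1A rose by 1.34 ± 0.16 (adjusted p = 0.00967; 0.0617 without control 3). It was the only one of 9 tested p53 targets to pass, against 0.938% of all genes. The median of the 9 was 0.33, or −0.24 without control 1 and SH1 1. Of 15 tested genes of DNA replication and 13 of mitosis 0 passed or lay without overlap. Over all genes 0.938% passed, and the medians of these lists were −0.81 and 0.23. Of the 15 replication genes 12 had negative values, as did 3440 of the 6398 genes tested.

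HMOX1 and GDA encode enzymes and rose. HMOX1, heme oxygenase 1, breaks down heme and is a target of NRF2; it was at 21.2, 27.4 and 28.6 FPKM in the controls, 43, 51.4 and 53.3 in SH1 and 86, 91.8 and 87.5 in SH3. The SH3 libraries formed the highest group and HMOX1 rose by 1.23 ± 0.16 in the average (adjusted p = 0.014), while the change with SH1 alone, 0.77 ± 0.18, did not pass (adjusted p = 0.0924). The call was lost without control 3, SH1 2, SH3 1 or SH3 2, where the adjusted p reached 0.0605. BACH1, the repressor of HMOX1, was at −0.94 ± 0.32 and did not pass (adjusted p = 0.347). Its value was −0.44 ± 0.28 without control 1 and SH1 1. In summed FPKM BACH1 overlapped, at 3.2, 1.45 and 1.16 in the controls and 0.97 to 1.28 in the knockdown libraries. Of 5 tested NRF2 targets and regulators 1 passed, against 0.938% of all genes. GDA, guanine deaminase, which turns guanine into xanthine, was at 0.55, 0.34 and 0.26 FPKM in the controls, 14, 11.7 and 10.8 in SH1 and 4.94, 5.97 and 4.83 in SH3. It had the largest change of the called genes that were above 0 in the controls: 17.4-fold (4.12 ± 0.26, adjusted p = 0.000283). ACADVL, which starts the oxidation of very long fatty acids in mitochondria, rose by 1.77 ± 0.32 (adjusted p = 0.0497), a value from 1 of its 9 RefSeq messenger RNAs.

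L1CAM, SEL1L3, TNC and MTSS1 were also among the higher genes. L1CAM, an adhesion molecule of neurons and of invasive tumour cells, was at 22.7, 31.2 and 30.4 FPKM in the controls, 127, 138 and 175 in SH1 and 43.9, 44.7 and 49.3 in SH3; it rose by 1.42 ± 0.18 (adjusted p = 0.0107; 0.0598 without control 3). SEL1L3, a membrane protein, was at 0.58, 0.98 and 1.16 FPKM in the controls, 3.79, 4.11 and 3.76 in SH1 and 7.26, 7.09 and 7.25 in SH3, and rose by 2.43 ± 0.27 (adjusted p = 0.00671). Here SH3 was the higher group, unlike L1CAM. TNC, the matrix protein tenascin C, was at 4.17, 5.42 and 3.55 FPKM in the controls, 15.9, 14.2 and 14.1 in SH1 and 10.4, 8.73 and 11.9 in SH3, and rose by 1.39 ± 0.19 (adjusted p = 0.019); its 4 summed rows include none of the 42 current RefSeq messenger RNAs. MTSS1, which binds actin and bends membranes, rose by 1.49 ± 0.25 (adjusted p = 0.04). C1QTNF1, a secreted protein of the C1q and tumour necrosis factor family, rose by 1.36 ± 0.16 (adjusted p = 0.00806), CYS1, a protein of the primary cilium, by 1.68 ± 0.21 (adjusted p = 0.0116), and MEGF6, with EGF-like repeats, by 1.46 ± 0.18 (adjusted p = 0.00894); each of these 3 lost its call without control 3, at an adjusted p of 0.0504, 0.0689 and 0.0605.

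Among the lower genes, CPA4 and ADAMTS1 encode secreted metalloproteases. CPA4, a carboxypeptidase that trims the ends of peptides, was at 15.8, 17.1 and 16.6 FPKM in the controls, 3, 2.93 and 2.64 in SH1 and 1.57, 1.37 and 1.56 in SH3. Controls and knockdown libraries were far apart and CPA4 fell by 3.13 ± 0.15 on the log2 scale (adjusted p = 8.27e-05). ADAMTS1, which cleaves versican, was at 45.1, 43.3 and 43 FPKM in the controls, 9.43, 9.13 and 8.94 in SH1 and 23.9, 20.1 and 21.3 in SH3, and fell by 1.75 ± 0.09 (adjusted p = 8.27e-05). The groups formed 3 tight levels. These were 2 of 16 tested members of the list of matrix proteases and inhibitors, against 0.938% of all genes; the median of the list was −0.06, or 0.23 on the 7 libraries. SERPINE2, a protease inhibitor, was without overlap and higher at 0.90 ± 0.26, and did not pass (adjusted p = 0.237).

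The promoter of CPA4 is shown because it held 2 matches to the AP-1 site (TGANTCA), which is bound by FOS and JUN proteins, within 60 bases of the start. The window is chr7:130293101-130293160 on the plus strand, with the matches in capitals.
CPA4: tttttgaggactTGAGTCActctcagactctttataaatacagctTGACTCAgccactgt
An AP-1 site was found in 6.6% of all promoters and 3.76% of those of genes tested, in 0 of 28 of called higher genes and 2 of 18 of called lower genes (11.1%). The match nearer the start overlaps one to the antioxidant response element (TGACNNNGC). That element was found in 11% of all promoters and 11.5% of those of genes tested, 0 of 28 of the higher genes and 1 of 18 of the lower. Of the other motifs searched, the short CRE-ATF motif (TGACG) was in 21.7% of all promoters and 29.6% of those of genes tested. It was in 4 of 28 of the higher genes and 2 of 18 of the lower. The E-box (CACGTG) was in 6.49% of all promoters and 8.62% of those of genes tested, 3 of 28 and 0 of 18.

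Among the gene lists, extracellular matrix had the most lower genes, 4. VCAN, versican, a large proteoglycan, was at 21.3, 17.7 and 20.6 FPKM in the controls, 8.86, 8.89 and 7.94 in SH1 and 9.87, 7.99 and 10.2 in SH3. Both hairpins gave nearly the same level, and VCAN fell by 1.27 ± 0.11 (adjusted p = 0.00173). TGFBI, an adhesive matrix protein induced by TGF-beta, was at 8.8, 10.1 and 10 FPKM in the controls, 1.97, 2.07 and 2.47 in SH1 and 4.21, 4.08 and 4.66 in SH3, and fell by 1.78 ± 0.18 (adjusted p = 0.00435). COL8A1, a collagen of basement membranes, was at 19.9, 11.4 and 15.5 FPKM in the controls, 5.35, 4.38 and 5.06 in SH1 and 7.42, 7.35 and 8.29 in SH3, and fell by 1.45 ± 0.15 (adjusted p = 0.00543). The controls of COL8A1 spread more than its knockdown libraries. FBN1, fibrillin 1 of elastic microfibrils, fell by 0.93 ± 0.13 (adjusted p = 0.0214), and its call was lost without control 2, control 3, SH1 1, SH1 2, SH3 1 or SH3 2. Of 41 extracellular matrix genes 17 were tested, of which 4 passed as lower and 1, TNC, as higher. Over all genes 0.359% passed as lower and 0.578% as higher. The list had a median of −0.42 that was −0.08 on the 7 libraries, and it was drawn up with earlier results of these data known. MATN2 and ABI3BP, also matrix proteins, were called lower at −0.91 ± 0.16 and −3.05 ± 0.55 (adjusted p = 0.0497 for both).

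FST and BMPER encode secreted proteins that bind TGF-beta family ligands. FST, follistatin, which binds activins, was at 27.9, 21.2 and 22.5 FPKM in the controls, 10.6, 9.44 and 6.91 in SH1 and 10, 11.2 and 8.68 in SH3. The knockdown groups overlapped each other and lay below the controls; FST fell by 1.45 ± 0.17 (adjusted p = 0.00732). BMPER, which binds BMPs, was at 3.56, 2.66 and 2.43 FPKM in the controls and 0.67 to 1.13 in the knockdown libraries, and fell by 1.86 ± 0.30 (adjusted p = 0.0306), a call that no fit without 1 library kept. Of 9 tested TGF-beta targets 2 passed, both lower (TGFBI and FST), against 0.359% of all genes passing as lower. The median of the 9 was −0.11, or −0.07 on the 7 libraries.

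Lower genes of signalling at the membrane included RGS4, LPAR1 and SERINC2. RGS4, which shortens signals of G proteins, was at 8.38, 6.26 and 8.25 FPKM in the controls, 1.13, 1.24 and 0.73 in SH1 and 2.61, 2.46 and 2.38 in SH3, and fell by 2.37 ± 0.22 (adjusted p = 0.00313). LPAR1, a receptor of lysophosphatidic acid, was at 16.1, 10.8 and 8.88 FPKM in the controls, 2.67, 4.12 and 2.58 in SH1 and 7.53, 4.97 and 5.72 in SH3. Control 1 was the highest library and control 3 was close to SH3 1; LPAR1 fell by 1.58 ± 0.25 (adjusted p = 0.0294), and its call held in 1 of the 9 fits that left out 1 library, the one without SH1 2. SERINC2, of a family of membrane proteins tied to serine lipids, was at 5.65, 7.09 and 6.9 FPKM in the controls, 0.64, 0.74 and 0.93 in SH1 and 1.59, 2.07 and 1.99 in SH3, and fell by 2.60 ± 0.27 (adjusted p = 0.00557).

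KRT19 and CDH6 were the epithelial genes called lower. KRT19, a keratin of simple epithelia, was at 70.1, 89.5 and 82.5 FPKM in the controls, 15.4, 17.5 and 21.6 in SH1 and 60.3, 66.6 and 60.5 in SH3. SH1 lay far below the controls whereas the gap from the lowest control to the highest SH3 library was small; KRT19 fell by 1.39 ± 0.16 in the average (adjusted p = 0.00671), and its change with SH3 alone was −0.46 ± 0.19 (adjusted p = 0.557). CDH6, a cadherin of kidney epithelium, was at 0.78 to 1.08 FPKM in the controls and 0.09 to 0.35 in the knockdown libraries (−2.41 ± 0.36, adjusted p = 0.0246). Of 11 tested epithelial genes these 2 passed, against 0.938% of all genes, and the median of the 11 was −0.28. In the list of mesenchymal and invasion genes L1CAM was the 1 of 10 to pass, higher, with a median of −0.76 that was −0.32 on the 7 libraries; TPM1, a tropomyosin of actin filaments, was at −0.81 ± 0.19 and did not pass (adjusted p = 0.126).

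Enzymes and regulators inside the cell made up the rest of the lower genes. POFUT1, which attaches fucose to Notch receptors, was at 40, 37.2 and 39.2 FPKM in the controls, 19.6, 19 and 19.4 in SH1 and 31.2, 30.5 and 31.5 in SH3. The libraries of a group differed by little and POFUT1 fell by 0.78 ± 0.07 (adjusted p = 0.00313). With HES1 it was the other called gene of 4 tested Notch pathway genes, against 0.938% of all genes. UBASH3B, a tyrosine phosphatase, fell by 0.74 ± 0.08 (adjusted p = 0.00671), MIEF1, a mitochondrial fission adaptor, by 0.77 ± 0.10 (adjusted p = 0.014), MPRIP, which ties myosin phosphatase to actin, by 0.61 ± 0.08 (adjusted p = 0.0116), LIMCH1, an activator of non-muscle myosin, by 1.23 ± 0.18 (adjusted p = 0.0214), and INO80C, a subunit of the INO80 chromatin remodeller, by 1.45 ± 0.26 (adjusted p = 0.0497). UBE3B, a ubiquitin ligase, was called lower from counts (−2.33 ± 0.38, adjusted p = 0.0316), yet in summed FPKM it ran from 1.69 to 3.97 in the controls and from 0.81 to 3 in the knockdown libraries and overlapped. Its value was 0.69, higher, when only curated transcripts were summed.

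The remaining higher genes are named by symbol and value. ATP9A, a lipid flippase, stood at 1.27 ± 0.20, ADGRG1, an adhesion receptor, at 1.26 ± 0.19, FEZ1, an adaptor of kinesin transport, at 1.10 ± 0.12, and SPINT2, an inhibitor of serine proteases, at 1.09 ± 0.19. SERPINB6, an inhibitor of serine proteases inside the cell, stood at 1.09 ± 0.17, BTF3L4 at 1.07 ± 0.15, IER3IP1 at 1.02 ± 0.18, SLC8B1, the sodium and calcium exchanger of mitochondria, at 0.98 ± 0.15, SEMA4B, a semaphorin, at 0.92 ± 0.17 and RPUSD4, a pseudouridine synthase of mitochondrial RNA, at 0.87 ± 0.15. All 10 passed, with adjusted p of 0.00671 to 0.0497. GOLGA7B, which assists protein palmitoylation, is described with the hairpins below.

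For 4 called genes the controls held no counts at all, and the fold is a bound from 3 counts over the control group. APH1B, a subunit of gamma-secretase, was at least 80-fold higher (33 to 202 counts in the knockdown libraries), HLTF, a DNA translocase of replication fork repair, at least 106-fold (47 to 284), SASS6, a core protein of new centrioles, at least 85-fold (14 to 173) and WDR76 at least 84-fold (27 to 165). In FPKM they were low, 0.19 to 2.88 in any knockdown library, and each rests on 1 to 3 listed transcripts: 1 of 4 RefSeq messenger RNAs for APH1B, 3 of 9 for HLTF, 1 of 6 for SASS6 and 1 of 2 for WDR76. For all 4, the count therefore concerns these transcripts rather than the gene, and 0 of the 4 was called on the 7 libraries.

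The size of the shared changes was compared between hairpins by testing SH3 against SH1 in the same fit. The control means are not part of that contrast, but the control libraries enter its scaling, filter and estimate of the spread. SH1 against control had 137 genes past the threshold (2.14%), SH3 against control 26 (0.406%) and SH3 against SH1 87 (1.36%). Of the 60 called genes, 52 passed with SH1 alone against control, 23 with SH3 and 18 with both; SH1 and SH3 share their controls. The 18 were CSF3, CXCL1, EREG, EGR1, HES1, CDKN1A, GDA, GRB10, KCNK3, SEL1L3, SERPINB6 and BTF3L4, higher, and CPA4, ADAMTS1, IGFBP3, VCAN, FST and MPRIP, lower. The change was larger with SH1 in 37 of the 60 and with SH3 in 23. The table holds only transcripts 2-fold apart between control 1 and SH1 1, with no such choice for SH3. The part of this choice in the larger numbers and changes with SH1, here and below, was not tested.

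In 11 of the 60 the hairpins differed past the threshold, and in all 11 the change was larger with SH1. GOLGA7B was the extreme: 0.17, 0.15 and 0.21 FPKM in the controls, 6.99, 8.18 and 10.7 in SH1 and 0.29, 0.29 and 0.27 in SH3. Its average of 3.01 ± 0.24 (adjusted p = 0.00138) combined 5.43 ± 0.28 with SH1 and 0.59 ± 0.24 with SH3 (adjusted p = 0.557), so the average describes neither group. IGFBP3 changed by −3.60 ± 0.15 with SH1 and −0.97 ± 0.13 with SH3, and both passed (adjusted p = 5.39e-05 and 0.0323); the difference was 2.64 ± 0.14 (adjusted p = 0.000185). ADAMTS1 changed by −2.42 ± 0.11 and −1.09 ± 0.11 and also passed with each (difference 1.33 ± 0.11, adjusted p = 0.00115). KRT19, L1CAM, FEZ1, ADGRG1, MEGF6, POFUT1, UBASH3B and INO80C passed with SH1 and not with SH3. UBASH3B changed by −0.17 ± 0.10 with SH3, and its 18, 17.7 and 18 FPKM there overlap the 20.7, 17.5 and 19.3 of the controls.

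Other genes gave values that were close with both hairpins. The difference SH3 minus SH1 was 0.06 ± 0.27 for HES1, 0.19 ± 0.10 for CSF3, 0.21 ± 0.21 for EGR1, 0.21 ± 0.13 for VCAN, 0.23 ± 0.20 for FST and −0.17 ± 0.10 for CXCL1, with adjusted p of 0.568 to 1. Differences of the size of these standard errors could not be told from 0 with 3 libraries a group. MET (1.43 ± 0.28, adjusted p = 0.0592), HMOX1 (0.92 ± 0.18, adjusted p = 0.0583) and CPA4 (−0.84 ± 0.18, adjusted p = 0.0724) changed more with SH3, and GDA (−1.21 ± 0.24, adjusted p = 0.0589) and RGS4 (1.35 ± 0.27, adjusted p = 0.0624) more with SH1, each just short of the threshold.

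**Figure D2:**
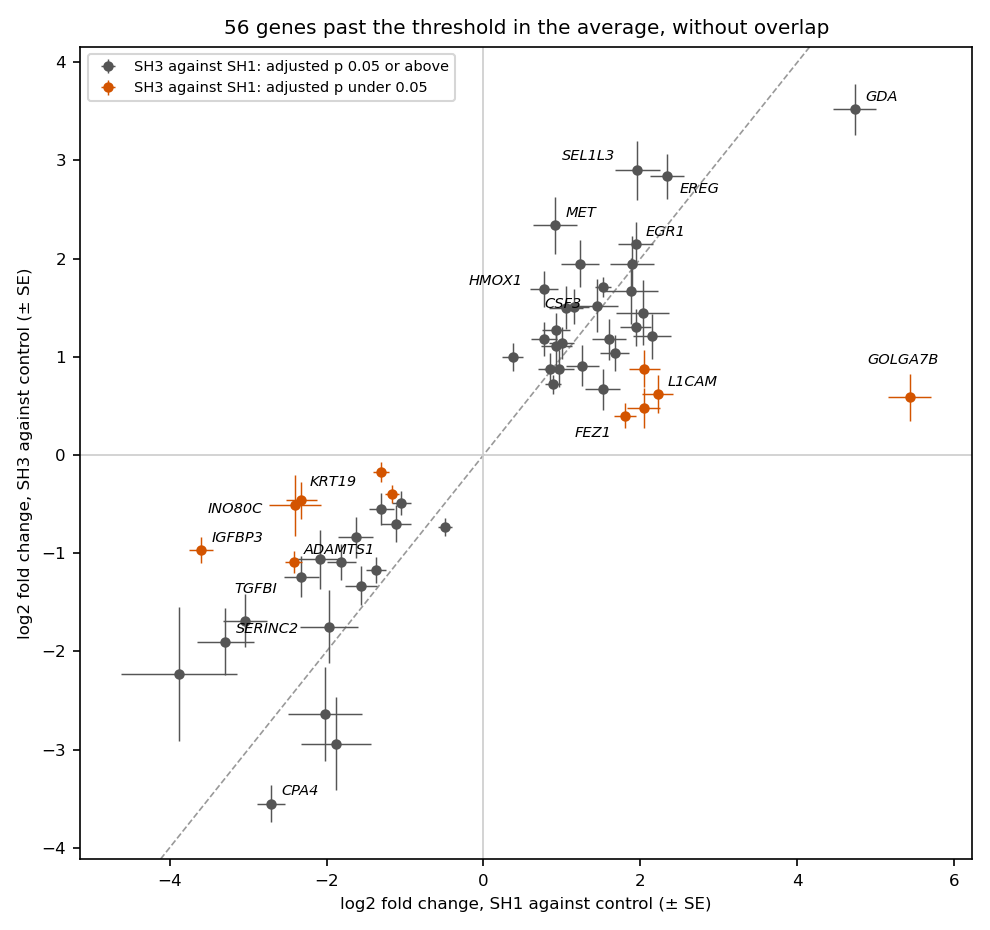
Log2 fold change with SH3 against that with SH1, each relative to control ± SE, for the 56 called genes that were above 0 in the controls; the dashed line marks equal values. The 11 genes in orange differed between hairpins (adjusted p under 0.05) and all lie on the SH1 side of the line, with GOLGA7B farthest from it; both axes share the control libraries.

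A further 11 genes passed the adjusted p alone, which 71 genes did (1.11%), but overlapped between knockdown and control libraries and were not counted. In 6 of them the hairpins went in opposite directions, among them ASNS, asparagine synthetase, at −1.26 with SH1 and 3.16 with SH3. At the threshold itself, SEMA4B and ABI3BP (adjusted p = 0.0497) and SASS6 (0.0499) lay just inside, and GLI2 (0.0508), CD163L1 (0.0511) and SQOR (0.0532) just outside.

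The gene lists nearest to the study's question had no called member. Over all genes 0.938% were called, so a count of 0 in lists this short says little. Of 34 core genes of PI3K, AKT and mTOR signalling 21 were tested and 0 passed the edgeR test, with a median of −0.03 (−0.05 on the 7 libraries) against −0.07 over all genes. EIF4E, the cap-binding factor of translation controlled by mTOR, was the only one without overlap, at 2.77, 2.22 and 1.65 FPKM in the controls, 0.94, 0.85 and 0.53 in SH1 and 1.02, 1.5 and 1.13 in SH3 (−1.31 ± 0.39, adjusted p = 0.252). It is 1 of its 4 RefSeq messenger RNAs. PIK3CD, a catalytic subunit of PI3K, had a change of 0.98 ± 0.37 (adjusted p = 0.4) and TSC1, a negative regulator of mTOR, one of −0.97 ± 0.43 (adjusted p = 0.506). MTOR was at 0.25 ± 0.43 and AKT2 at 0.65 ± 0.63, and the regulator TSC2 at −0.39 ± 0.20, with adjusted p of 0.582 to 0.96. With SH1 and SH3 in turn, MTOR was at −0.14 and 0.65 and TSC1 at −0.13 and −1.81. PIK3CD, AKT2 and TSC2 had the same sign with both hairpins. Of 21 genes of SL1 and RNA polymerase I 10 were tested and 0 passed or lay without overlap; the median was −0.37. TAF1A was at −0.85 ± 0.47, TAF1C at −0.11 ± 0.42 and POLR1B at −0.48 ± 0.26, with adjusted p of 0.597 to 0.989. For these genes the hairpins went opposite ways, so the averages are not shared changes. With SH1 and SH3 in turn, TAF1A was at −1.78 and 0.07, TAF1C at −0.27 and 0.06 and POLR1B at −1.20 and 0.23. Of 9 tested genes of ribosome assembly 0 passed, with a median of −0.71 that was −0.33 on the 7 libraries. A p that misses the threshold does not show that these genes were unchanged.

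In other lists 0 genes passed: 15 tested ATF4 targets (median 0.19), 17 hypoxia and HIF targets (0.39), 14 genes of cholesterol and lipid synthesis (−0.82), 12 YAP and TEAD targets (−0.09), 11 genes of interleukin 6 and STAT3 signalling (0.39), 10 spliceosome genes (0.01), 8 interferon response genes (0.26), 8 ERK feedback genes (−0.46) and 4 genes of the unfolded protein response (−0.35). With 0.938% of all genes called, a count of 0 says little for these short lists too. In the ATF4 list the hairpins often went opposite ways, as in ASNS, which passed the adjusted p but overlapped. Its median therefore describes neither hairpin. On the 7 libraries the medians were 0.10 for ATF4 targets, 0.22 for hypoxia, −0.24 for YAP and TEAD targets and 0.25 for the spliceosome. That of the unfolded protein response turned to 0.37. SPRY1, an inhibitor of ERK signalling, was without overlap and lower and did not pass. CRIM1, a BMP-binding membrane protein on the YAP list, was also without overlap at −1.04 ± 0.27 (adjusted p = 0.188).

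**Figure D3:**
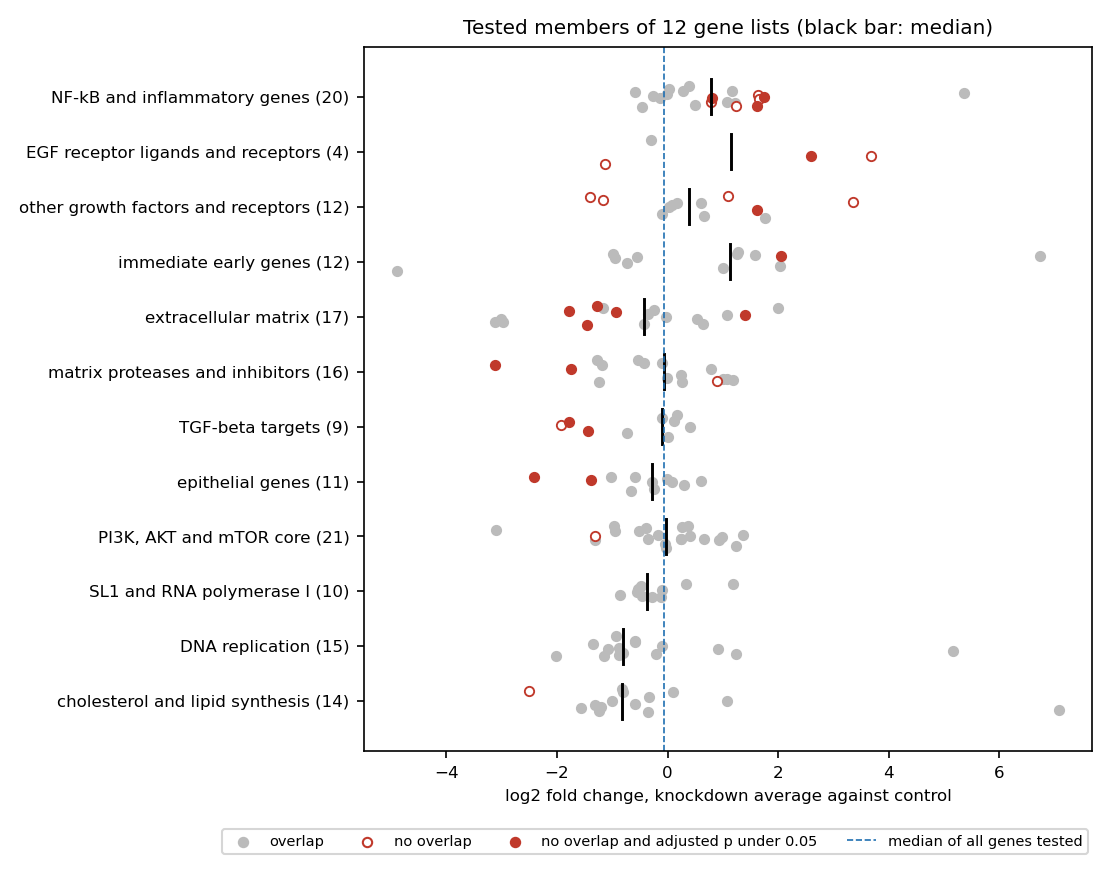
Log2 fold change of the knockdown average against control for the tested members of 12 gene lists (number tested in brackets); filled red points passed the test without overlap, open red points were without overlap only, grey points overlapped, and black bars are medians. The inflammatory list has a median of 0.79 with 3 called genes to the right, and the PI3K list −0.03 with none. The matrix list has −0.42 (−0.08 on the 7 libraries) with 4 to the left and 1 to the right. Over all genes 0.938% were called. The dashed line is the median of all genes, −0.07. The lists were drawn up with earlier results of these data known.

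Without control 1 and SH1 1, the libraries that defined the table, 19 genes passed without overlap (0.298% of 6367 tested), 8 higher (0.126%) and 11 lower (0.173%). With fewer libraries the overlap rule is easier to meet, and 970 genes (15.2%) had none, 453 higher (7.11%) and 517 lower (8.12%). All 60 genes kept their direction and were without overlap in the 7 libraries, as they must be, having been so in 9, and 17 passed again. These were CSF3, EREG, GDA, SEL1L3, KCNK3, HMOX1, L1CAM and GOLGA7B, higher, and CPA4, ADAMTS1, IGFBP3, TGFBI, VCAN, RGS4, SERINC2, KRT19 and POFUT1, lower. The other two were ARHGAP45 (−2.78, adjusted p = 0.0421) and MAST2 (−1.43, adjusted p = 0.0416). The ratio of the 7-library to the 9-library log2 fold change was 0.773 to 1.25 over the 60 genes, with a median of 0.983. CSF3 went from 1.62 to 1.70, CPA4 from −3.13 to −3.17 and ADAMTS1 stayed at −1.75, each with adjusted p = 0.0047. EGR1 went from 2.05 to 2.04, CDKN1A from 1.34 to 1.42 and CXCL1 stayed at 0.80, with adjusted p of 0.0503, 0.0502 and 0.0502, just outside the threshold. LIMCH1 had the smallest ratio, from −1.23 to −0.95, and LPAR1 went from −1.58 to −1.26.

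**Figure D4:**
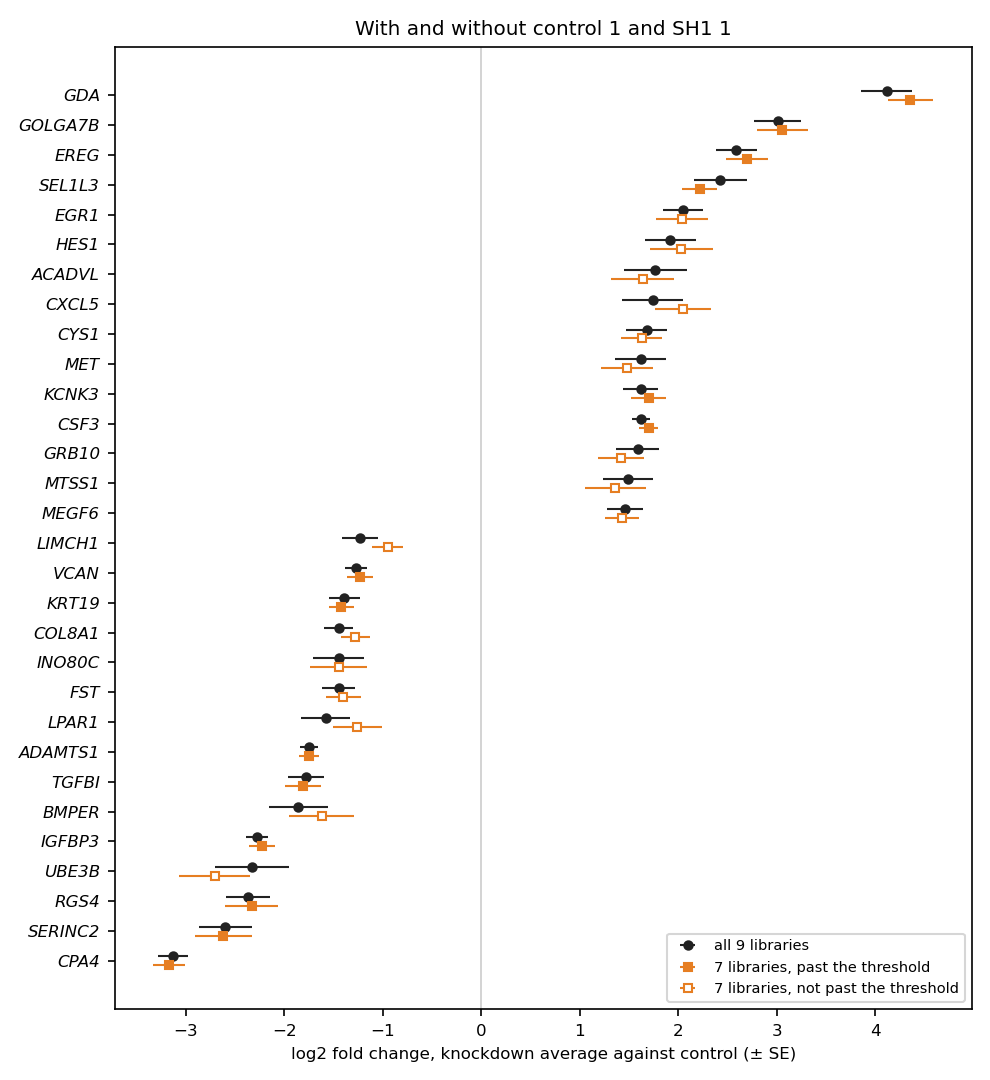
Log2 fold change ± SE of the 15 higher and 15 lower genes with the largest changes and a mean of at least 1 FPKM, from all 9 libraries (black) and without control 1 and SH1 1 (orange; filled where past the threshold). All 30 genes lie on the same side of 0 in both, as follows from choosing genes without overlap. The values moved by less than the sum of the standard errors. Both fits share 7 libraries, so this closeness is not an independent check.

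The number of calls depended on the model and on single libraries more than the values did. Leaving out 1 library at a time, 21 of the 60 genes passed in all 9 fits: CSF3, CXCL1, EREG, EGR1, GDA, KCNK3, SEL1L3, GOLGA7B and FEZ1, higher, and CPA4, ADAMTS1, IGFBP3, VCAN, TGFBI, COL8A1, FST, RGS4, SERINC2, KRT19, POFUT1 and UBASH3B, lower. In none of these fits did 13 pass: ACADVL, MTSS1, APH1B, BMAL2, RPUSD4, SEMA4B, SLC8B1, SPINT2, BMPER, CDH6, INO80C, MATN2 and ABI3BP. GRB10 lost its call without control 2, SH1 2 or any SH3 library, and TNC without control 1, control 3, SH1 2, SH3 1 or SH3 3. CPA4, CSF3, EREG and GDA were called in every one of the 22 alternatives. With the 6 knockdown libraries as 1 group, so that differences between the hairpins count as spread, 9 genes passed without overlap: CSF3, EREG, EGR1, GDA, HES1 and WDR76, higher, and CPA4, VCAN and FST, lower. The DESeq2 Wald test called 132 higher and 91 lower, all 60 among them.

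**Figure D5:**
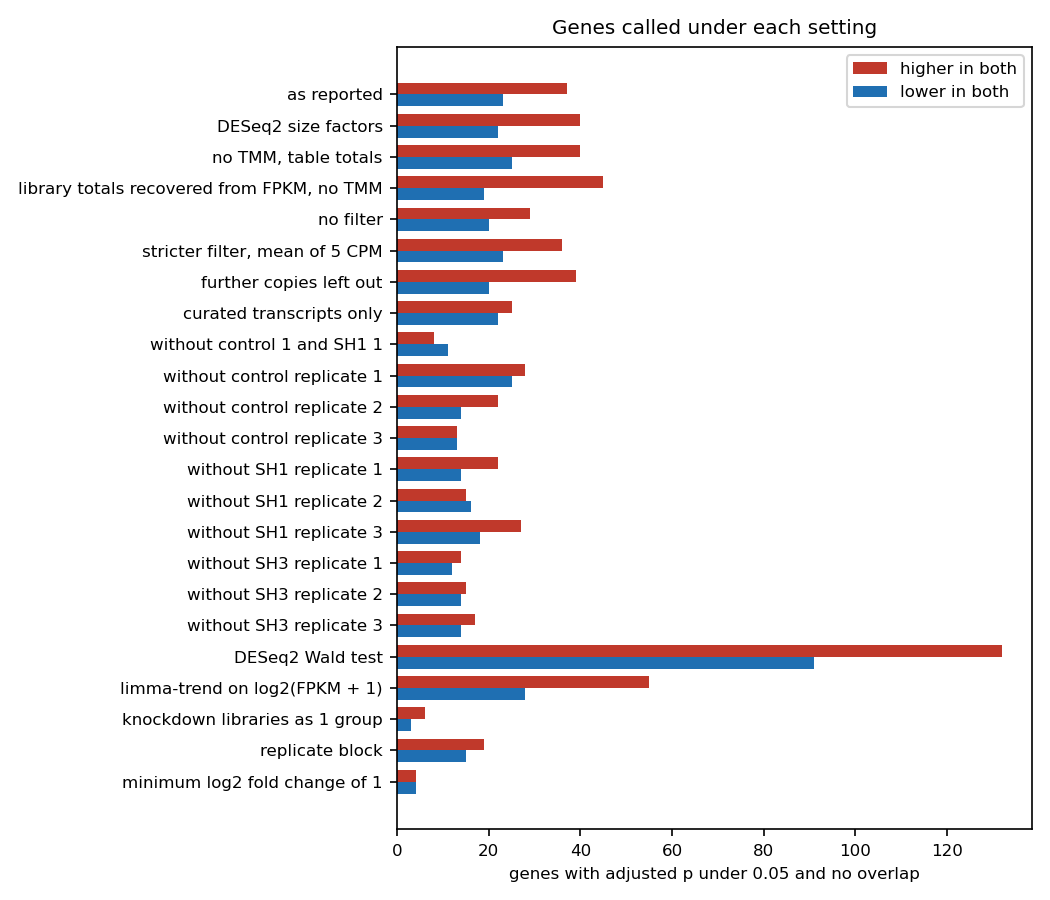
Number of genes past an adjusted p of 0.05 without overlap, higher (red) and lower (blue) in both knockdown groups, under each setting. The counts as reported are 37 and 23; they run from 4 and 4 with a minimum log2 fold change of 1 to 132 and 91 with the DESeq2 Wald test.

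Because the table lists part of each gene's transcripts, a value can describe 1 isoform rather than a gene. Of the 60 genes, 14 had all their RefSeq messenger RNAs listed, 38 had no more listed than missing, and 25 rested on 1 row. Fully listed genes included CXCL1, CXCL5, EREG, EGR1, HES1, HMOX1, KCNK3 and GOLGA7B among the higher and ADAMTS1, TGFBI and KRT19 among the lower. VCAN rested on 1 of 4 messenger RNAs, IGFBP3 on 1 of 3, MET on 2 of 6 and LPAR1 on 31 of 77.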

How the data were processed

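RNA of 9 Caki-1 libraries was sequenced, 3 controls, 3 SH1 and 3 SH3. Per the file headers, the deposited table gives an estimated count, FPKM, TPM and a normalized read count per transcript and library. The submitters' processing notes name the mouse build mm10, while 6813 of 6819 genes matched the human RefSeq table (GRCh38.p14) by gene number; the values were read as human, and symbols of 85 genes were updated. The aligner and counter are not given in the sources used here. The deposited estimated counts (expected counts, 65.11% not whole) were summed per gene and rounded. The deposited FPKM values were summed to describe levels, the deposited TPM gave the share of a library listed, and the deposited normalized read count, a signal, was used for no test.

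All 9 libraries entered 1 edgeR quasi-likelihood fit (edgeR 4.0.16, R 4.3.3; TMM, filterByExpr with a minimum count of 10, robust), leaving 6398 genes, with the contrast of the mean of SH1 and SH3 against control. P-values were adjusted by Benjamini-Hochberg over all genes tested, with a threshold of 0.05. No overlap was judged in TMM-scaled CPM. The SE is the fold change over the square root of F. Per library 5342 to 5916 genes had at least 10 counts (a counting error of at most 31.6%), and 2884 to 3187 had at least 100 counts (at most 10%); these errors and the bounds from 3 counts cover counting error only. Code for the fit was tested on simulated data. Alternatives used DESeq2 1.42.0 and limma 3.58.1. Genes were named by rule: the 15 each way with the largest change and a mean of at least 1 FPKM, the 10 each way with the smallest p and no overlap, and up to 4 members per list without overlap; the other 22 called genes, ASNS and those at the threshold were named after their values were seen. The members and lists were chosen with earlier results of these data known.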

Additional observations from a re-analysis of the deposited data

Results flagged for a closer look

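In 11 genes that passed in the average of both hairpins, SH3 and SH1 differed by the edgeR test of one against the other. That test came from the same fit of all libraries, controls included. The log2 differences SH3 minus SH1 were −4.84 for GOLGA7B (adjusted p = 0.000185), 2.64 for IGFBP3 (0.000185), 1.33 for ADAMTS1 (0.00115), 1.14 for UBASH3B (0.0018), −1.39 for FEZ1 (0.00269), 1.86 for KRT19 (0.00344), 0.76 for POFUT1 (0.00564), −1.60 for L1CAM (0.00799), −1.56 for ADGRG1 (0.0125), −1.17 for MEGF6 (0.0305) and 1.89 for INO80C (0.0348). In each, the 3 libraries of one hairpin lay apart from the 3 of the other. The level of TAF1D in either group was not analysed here, so the part of unequal knockdown in these differences was not tested. Nor was the part of the table's choice of transcripts on control 1 and SH1 1.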

How the results depend on the processing

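Of 22 alternatives, those that changed the scaling, the filter or the transcripts summed, and limma, kept the counts of called genes within 1.5 times of 37 higher and 23 lower, as did leaving out control 1 or SH1 3. Without control 1 and SH1 1 the counts were 8 and 11, with 970 genes without overlap instead of 406. Leaving out 1 library gave 13 to 28 higher, 12 to 25 lower and 467 to 884 without overlap; fewer libraries make overlap less likely by construction. The DESeq2 Wald test gave 132 and 91 with all 60 genes among them, the knockdown libraries as 1 group 6 and 3, and a minimum log2 fold change of 1 gave 4 and 4; the cause was not tested. With the replicate number as a block the counts were 19 and 15. Deviations of libraries with the same number had correlations of −0.075 to 0.073, against −0.055 to 0.097 for different numbers. The numbers were therefore not taken as a pairing. The lowest value, −0.075, was that of control 1 and SH1 1. Because the transcripts were chosen to differ between these 2 libraries, the check could hardly show a pairing there. With curated transcripts alone 56 of the 60 genes were tested and 37 called. Values reversed only with curated transcripts alone: UBE3B in the average (0.69) and MATN2 with SH1 (0.55). Low counts and isoforms outside the table limit the precision of single genes.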
